A study of Mus musculus with 8 samples.

Results

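The 85 genes described here, called splicing genes for short, belong by symbol to the families that supply the protein parts of the splicing machinery: the Sm and other proteins of the small nuclear ribonucleoproteins (snRNPs; genes named Snrp and Snrnp), the SF3a and SF3b subunits, U2AF, the Prpf factors, the Lsm proteins, the SR proteins (Srsf) and the hnRNP proteins. Not all Lsm proteins act in splicing: Lsm1 belongs to the cytoplasmic ring of mRNA decay, Lsm10 and Lsm11 to the U7 snRNP of histone mRNA processing, and Lsm12, Lsm14a and Lsm14b are not spliceosome components. The 85 genes were chosen by symbol, with earlier results of these data known, from 38924 rows of a table of mouse embryo transcript levels. Snrpn and pseudogene symbols were left out, and the row of highest mean was taken where a symbol was repeated. Of the 85, 84 were at 1 or higher in 2 or more libraries and were tested among 17698 genes, and Srsf12, which did not exceed 0.594 in any library, was not tested. All embryos were C57BL/6, and each library was made from a pool of about 50 embryos. The 3 groups were inner cell mass (ICM, 3 libraries) of blastocysts at day 3.5, ICM of diapaused blastocysts (3 libraries), and epiblast of post-implantation embryos at day 6.5 (2 libraries). Diapaused blastocysts came from mothers that received tamoxifen and 0.5 mg of Depo Provera, a progestin, on day 3.5, and were collected 5 days later, so the effects of arrest, of the added days and of the hormone treatment cannot be told apart. In blastocysts the trophectoderm was removed with antibody and complement, and the RNA of every group was amplified before sequencing. Values are adjusted TPM as the authors deposited them, fold changes are differences of log2(value + 1) ± SE from limma, and adjusted p-values are Benjamini-Hochberg values over the 17698 genes.

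Introns are removed from pre-mRNA by the spliceosome, which is assembled anew on each intron from the U1, U2, U4, U5 and U6 snRNPs. Each of the first 4 carries a ring of Sm proteins around its RNA, while U6 carries a ring of Lsm proteins. U1 marks the start of the intron, U2AF the end, and U2 with SF3a and SF3b the branch point, after which the U4, U5 and U6 particles join as a tri-snRNP and Prpf factors remodel the complex. SR proteins and hnRNP proteins bind the transcript and favour or disfavour particular splice sites, often in opposition. Dormant blastocysts are known for low transcription and little cell division, and the early post-implantation epiblast for rapid division.

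The labelled tissues were checked against marker genes. The summed level of 5 primed epiblast markers was 295 to 579 in the epiblast libraries, against 22.9 to 36.4 for ICM and 7.51 to 13.6 for its diapaused counterpart. The 12 primitive endoderm markers summed to 601 to 751 in ICM, 1816 to 2153 in diapaused ICM and 67.8 to 70.7 in epiblast, where 8 of the 12 stayed under 1 in both libraries. The 8 markers of ICM and early epiblast summed to 530.5 to 854, 436 to 527 and 255 to 324 in the same order. The 11 trophectoderm markers summed to 41.1 to 59.7 in ICM, 54.5 to 187 in diapaused ICM and 59.3 to 67.4 in epiblast, and 7 blood and immune markers to 5.00 to 10.05, 47.5 to 134 and 2.33 to 4.08. Of those 7, 4 stayed under 1 in every diapaused ICM library, and 5 did so in ICM and 5 in epiblast, so few genes carry these sums. The 7 visceral endoderm markers summed to 16.4 to 31.9 in ICM, 61.6 to 69.7 in diapaused ICM and 29.3 to 69.98 in epiblast, and 4 markers of extraembryonic ectoderm and mesoderm to 15.1 to 18.9, 2.16 to 5.34 and 17.3 to 18.1. In pools of whole tissue, fewer cells of a type and less RNA per cell cannot be told apart, and the part that these shifts in cell makeup have in the values below was not tested.

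Levels of the splicing genes spanned a wide range. Averaged over the 3 group means, they ran from 1.5 adjusted TPM for Lsm1 to 6910 for Snrpg, the Sm G protein, with a median of 44.1 over the 84 tested genes. Snrpg alone made up 0.514% to 0.795% of the summed values of an ICM library, 0.498% to 0.676% of a diapaused ICM library and 0.659% to 1.01% of an epiblast library. The other 84 genes together made up 1.54% to 1.77% in ICM, 0.907% to 1.24% in diapaused ICM and 1.31% to 1.65% in epiblast, so the diapaused libraries lay below every ICM and every epiblast library. The hnRNP genes alone held 0.896% to 0.994% of an ICM library and 0.441% to 0.624% of a diapaused one. The median coefficient of variation between libraries of a group was 22.4% in ICM, 17.4% in diapaused ICM and 15.5% in epiblast. In the same order, 15, 16 and 8 of the 84 genes differed more than 2-fold between libraries of a group. Epiblast had 2 libraries and the other groups 3, so its spread is not directly comparable with theirs.

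**Figure D1:**
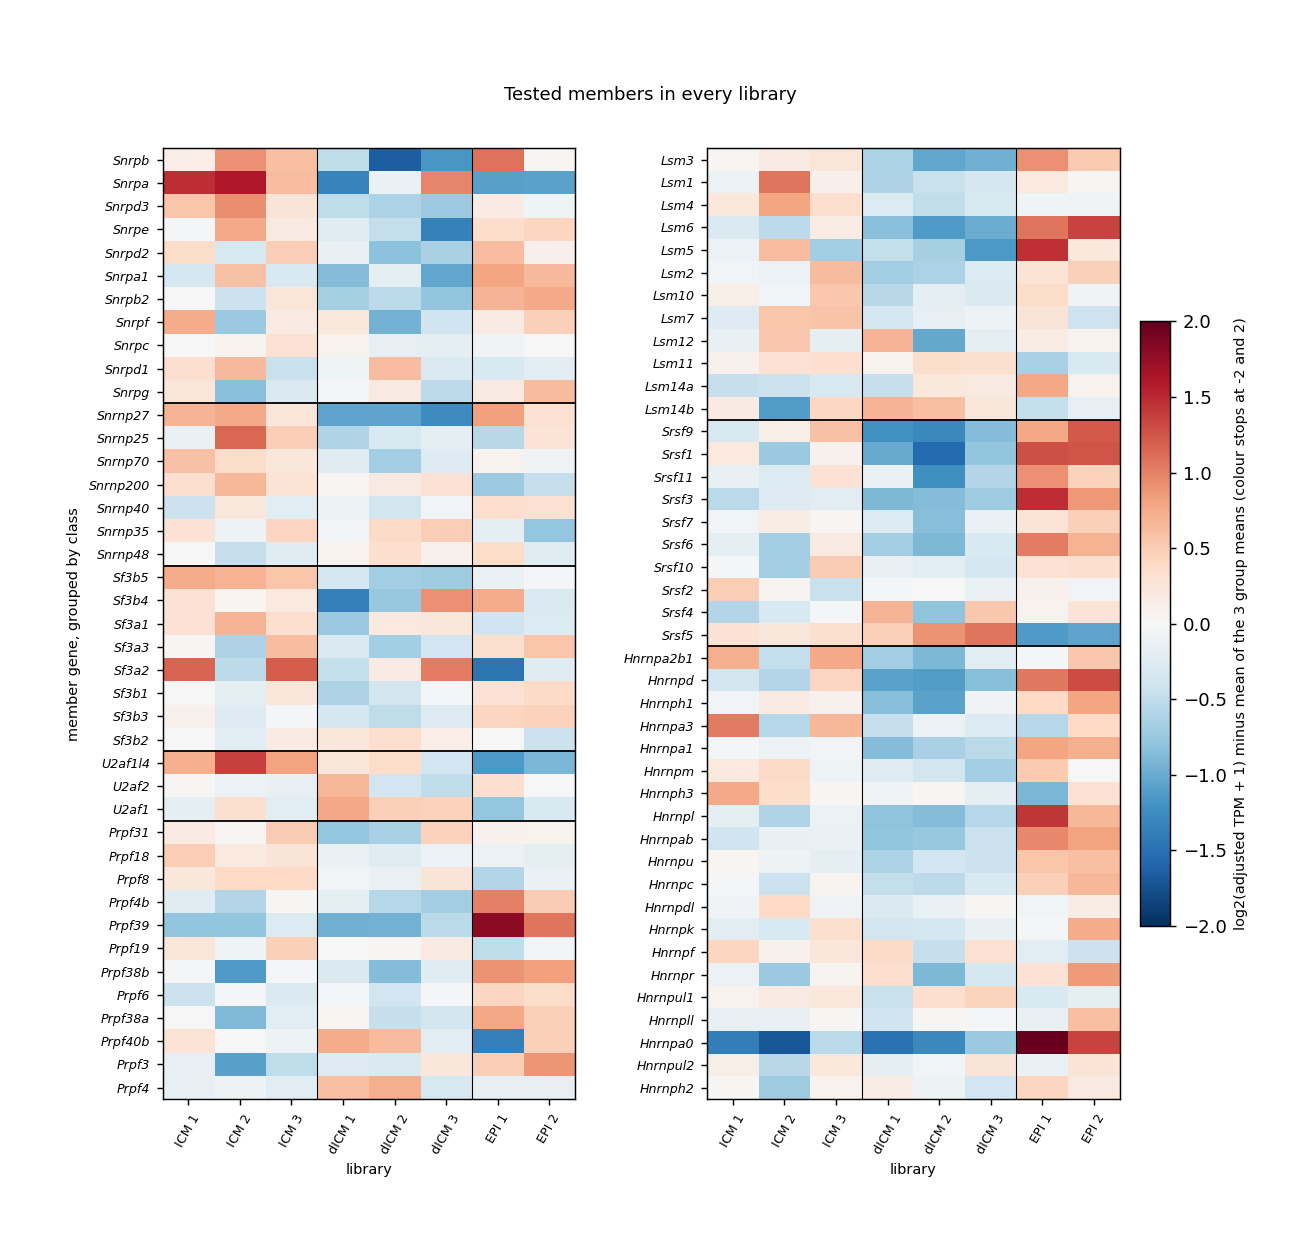
Level of the tested splicing genes (1 is not shown) in each library, as the difference of log2(adjusted TPM + 1) from the gene's mean over the 3 group means, with genes grouped by class. Blue cells (below the gene's mean) are frequent in the 3 diapaused ICM columns and red cells in the 2 epiblast columns, with Srsf5 and U2af1 running the other way.

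In diapaused ICM, 8 of the 84 splicing genes fell relative to ICM and 0 rose. Over all tested genes, 13.3% were called in this comparison, 5.81% lower and 7.52% higher, and 9.52% of the splicing genes were called lower. At an unadjusted p under 0.05, 25 were lower and 2 higher, together 27 of 84, where 4832 of all 17698 tested genes were at that level in either direction. Fold changes were negative for 65 genes and positive for 19, with a median of -0.39 against 0.00 over all genes and a range from -1.68 to 0.68. The groups did not overlap for 32 genes, against 30.7% of all genes. Of these, 29 were lower (34.5%, against 14.4% of all genes) and 3 higher (3.57%, against 16.4%), namely U2af1, Srsf5 and Snrnp48. The 8 genes that fell belong to 5 of the 8 classes: Snrpb and Snrpd3 of the Sm ring, Snrnp27 and Snrnp70 of the snRNP-specific proteins, Sf3b5, Lsm3 and Lsm4, and Srsf9.

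Snrnp27 (ENSMUSG00000001158), a protein of the tri-snRNP, had the most negative fold change. It measured 10.8, 11.5 and 7.70 in the ICM libraries and 2.56, 2.54 and 2.10 in the diapaused ones. Every diapaused library was below every ICM library, the means being 10.02 ± 2.04 (SD, n = 3) and 2.40 ± 0.260 (SD, n = 3), a 4.17-fold difference (-1.68 ± 0.23, adjusted p = 0.00203, limma). Its epiblast values of 12.1 and 8.08 lay close to those of ICM.

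Snrpd3 (ENSMUSG00000020180) encodes the Sm D3 protein and was the most abundant of the Sm genes that fell. The ICM libraries held 243, 315 and 199 and the diapaused libraries 116, 107 and 99.5, with no overlap. The mean went from 252 ± 58.8 to 108 ± 8.49 (-1.20 ± 0.23, adjusted p = 0.0101, limma). Snrpb (ENSMUSG00000027404), for the Sm B protein, was lower in all 3 diapaused libraries, at 8.40, 3.26 and 4.95 against 13.5, 24.1 and 19.1 in ICM (-1.65 ± 0.38, adjusted p = 0.0226, limma). The spread of Snrpb was wide, and its call was lost when ICM replicate 2 or 3 or diapaused replicate 2 or 3 was left out (adjusted p 0.0623 to 0.0696).

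Sf3b5 (ENSMUSG00000078348), the smallest subunit of SF3b, was tight within each group. It read 58.7, 56.6 and 51.7 in ICM and 26.8, 21.1 and 20.9 in diapaused ICM, a 2.43-fold difference of the means (-1.25 ± 0.20, adjusted p = 0.00445, limma). With Snrpd3 and Snrnp27, it is 1 of 3 genes that stayed past the threshold in all 18 alternative settings and left-out libraries. Snrnp70 (ENSMUSG00000063511), the U1 protein that contacts SR proteins, was at 382, 328 and 299 in ICM and 215, 158 and 214 in diapaused ICM (-0.79 ± 0.21, adjusted p = 0.0430, limma). That call and the one for Lsm4 were lost when any 1 of the 8 libraries was left out, at adjusted p 0.0619 to 0.146 for Snrnp70 and 0.0600 to 0.108 for Lsm4.

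Lsm3 and Lsm4 are members of the ring that sits on U6 RNA and also of the cytoplasmic ring that takes part in mRNA decay. Lsm3 (ENSMUSG00000034192) was at 110.0, 122 and 127 in ICM and 68.7, 51.5 and 54.7 in diapaused ICM (-1.03 ± 0.22, adjusted p = 0.0150, limma). Lsm4 (ENSMUSG00000031848) was at 16.96, 25.7 and 18.6 in ICM and 11.8, 9.97 and 11.4 in diapaused ICM (-0.81 ± 0.22, adjusted p = 0.0394, limma). Neither gene's groups overlapped. Without ICM replicate 3 the adjusted p of Lsm3 was 0.0512, and without diapaused replicate 2 it was 0.0515.

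Srsf9 (ENSMUSG00000029538) was the SR gene that fell. Its levels were 28.1, 38.6 and 53.6 in ICM, 14.7, 13.9 and 19.02 in diapaused ICM and 61.2 and 84.8 in epiblast. The diapaused libraries were the lowest 3 of the 8 (-1.25 ± 0.28, adjusted p = 0.0203, limma). Leaving out ICM replicate 3 or diapaused replicate 1 or 2 gave adjusted p-values of 0.0622, 0.0574 and 0.0629.

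The number of splicing genes that fell depended on single libraries and on scaling. It was 3 without ICM replicate 3, where 607 of all 17415 tested genes were lower, and 3 without diapaused replicate 2 (663 of 17356). In both of these, 3 of 84 was close to the share of all genes. The number was 5 without diapaused replicate 1 (706 of 17330), and 14 when each library was rescaled to its sum without the 100 most abundant genes. With that rescaling the median of all genes moved by -0.103, and the median of the splicing genes was -0.52 against -0.10 for all genes. Over all genes it also turned the split of 1331 higher and 1029 lower into 1100 higher and 1322 lower. Leaving out diapaused replicate 3 gave 1 gene that was higher, and every other setting gave 0.

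**Figure D2:**
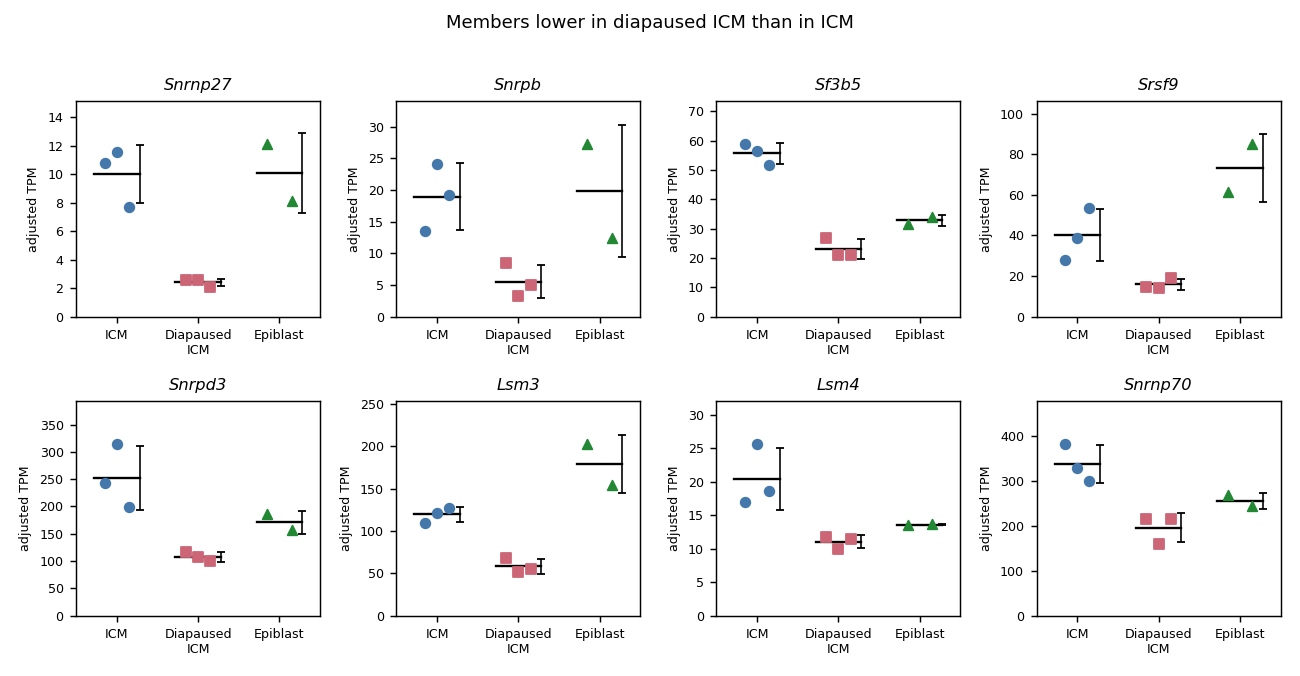
Adjusted TPM of the 8 splicing genes that fell in diapaused ICM, in each library (points) with the group mean (bar) and SD (whisker). In all 8 panels the 3 diapaused libraries lie below the 3 ICM libraries.

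The promoters of 4 genes that stand for the main patterns are shown: Snrnp27 and Snrpd3 as genes low in diapaused ICM, Srsf1 as an SR gene high in epiblast, and Srsf5 as an SR gene low in epiblast. Each is the 250 bases upstream of the first transcription start that RefSeq lists, in build GRCm38.p6, written 5′ to 3′ on the gene's strand, at chr6:86684492-86684741 (minus strand), chr10:75517792-75518041, chr11:88047123-88047372 and chr12:80945249-80945498 (plus strand). Capitals mark matches, on either strand, to the CCAAT box (the letters CCAAT), to the GC box (searched as GGGCGG) or to an ETS-type motif (searched as CCGGAAG), and neighbouring matches can overlap.
Snrnp27: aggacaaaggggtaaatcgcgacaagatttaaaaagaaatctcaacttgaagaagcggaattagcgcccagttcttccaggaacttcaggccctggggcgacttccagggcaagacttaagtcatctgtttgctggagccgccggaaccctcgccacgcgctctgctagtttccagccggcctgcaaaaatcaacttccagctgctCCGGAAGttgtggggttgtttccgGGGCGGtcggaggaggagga
Snrpd3: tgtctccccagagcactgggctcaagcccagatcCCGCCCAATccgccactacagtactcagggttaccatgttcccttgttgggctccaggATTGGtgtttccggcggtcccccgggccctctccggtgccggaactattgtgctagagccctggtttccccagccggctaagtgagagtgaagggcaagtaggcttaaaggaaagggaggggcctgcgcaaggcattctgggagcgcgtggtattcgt
Srsf1: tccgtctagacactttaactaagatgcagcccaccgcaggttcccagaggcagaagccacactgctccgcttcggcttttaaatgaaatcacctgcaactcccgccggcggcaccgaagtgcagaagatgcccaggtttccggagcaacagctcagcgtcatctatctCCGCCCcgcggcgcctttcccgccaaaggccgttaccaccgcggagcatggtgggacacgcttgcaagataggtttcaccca
Srsf5: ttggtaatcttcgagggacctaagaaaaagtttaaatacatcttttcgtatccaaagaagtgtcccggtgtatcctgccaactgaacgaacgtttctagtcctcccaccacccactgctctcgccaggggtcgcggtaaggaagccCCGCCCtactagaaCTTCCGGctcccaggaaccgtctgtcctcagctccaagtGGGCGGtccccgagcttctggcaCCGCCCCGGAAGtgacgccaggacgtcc

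The Snrnp27 promoter held an ETS-type match and a GC box, that of Snrpd3 held a GC box and 2 CCAAT boxes, that of Srsf1 held a GC box, and that of Srsf5 held 3 GC boxes and 2 ETS-type matches. RefSeq promoters were matched for 72 of the 85 genes and set beside all 17492 protein-coding promoters of the same length. The ETS-type letters were in 26.4% of the 72 and 9.13% of all, the GC box in 66.7% and 42.7%, and the CCAAT box in 44.4% and 36.3%. An NRF1-like motif, GCGCNNGCGC, was in 20.8% and 6.93%. The TATA box, searched as TATAAA, was in 8.33% of the 72 windows and in 12.4% of all. A YY1-like motif, searched as AAGATGG, was in 1.39% of the 72 windows and in 4.1% of all. The E-box and the cAMP response element, searched by their palindromic core letters, were each within 1 percentage point of their share in all promoters. The median GC content of these windows was 58.4% and 55.2%, so GC-rich letters have a higher base rate in the splicing genes. These matches describe the sequence and say nothing of binding.

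By class, medians in diapaused ICM were negative for 7 of the 8 classes. The median fold change was -0.68 for 11 Sm and other Snrp genes, -0.62 for 12 Lsm genes, -0.43 for 10 SR genes, -0.42 for 8 SF3a and SF3b genes, -0.35 for 20 hnRNP genes, -0.27 for 7 Snrnp genes and -0.06 for 13 Prpf genes. Each of these medians stayed negative under the 3 other scalings. The 3 U2AF genes had no common direction, with fold changes from -0.89 to 0.60.

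Of the 7 genes of the Sm ring, Snrpb and Snrpd3 passed the test. Snrpe (Sm E) was at 109, 188 and 124 in ICM and 92.9, 78.5 and 42.5 in diapaused ICM (a mean 1.97-fold lower, adjusted p = 0.0821, limma). Snrpd2 (Sm D2) gave -0.72 ± 0.30 (adjusted p = 0.157) and Snrpf (Sm F) -0.43 ± 0.41 (adjusted p = 0.566) with overlapping groups, by the same test. Snrpd1 (Sm D1) read 559, 696 and 327 in ICM and 419, 679 and 362 in diapaused ICM, which overlap almost fully (-0.10 ± 0.33). Snrpg read 7813, 3704 and 5406 in ICM and 6501, 7496 and 4607 in diapaused ICM (0.17 ± 0.31, adjusted p = 0.778, limma), but with quantile normalization its fold change was -0.779 and past the threshold (adjusted p = 0.0224), so its direction depends on the scaling. Within a ring whose proteins are assembled in equal number, the change of the mean from ICM to diapaused ICM differed between genes. It ranged from 3.42-fold lower for Snrpb to 1.10-fold higher for Snrpg in the values as deposited.

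No hnRNP gene passed the test between diapaused ICM and ICM. Of the 20 fold changes 17 were negative, and 7 of the 20 genes had lower values without overlap, where 14.4% of all genes did. Hnrnpa1, which often opposes SR proteins in exon choice, had the smallest p of the class. It was at 453, 428 and 445 in ICM and 253, 294 and 316 in diapaused ICM (-0.62 ± 0.19, adjusted p = 0.0589, limma). Hnrnph3, the hnRNP gene of highest level, was at 2605, 1957 and 1586 in ICM and 1461, 1571 and 1350.0 in diapaused ICM (-0.46 ± 0.32, adjusted p = 0.408, limma).

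**Figure D3:**
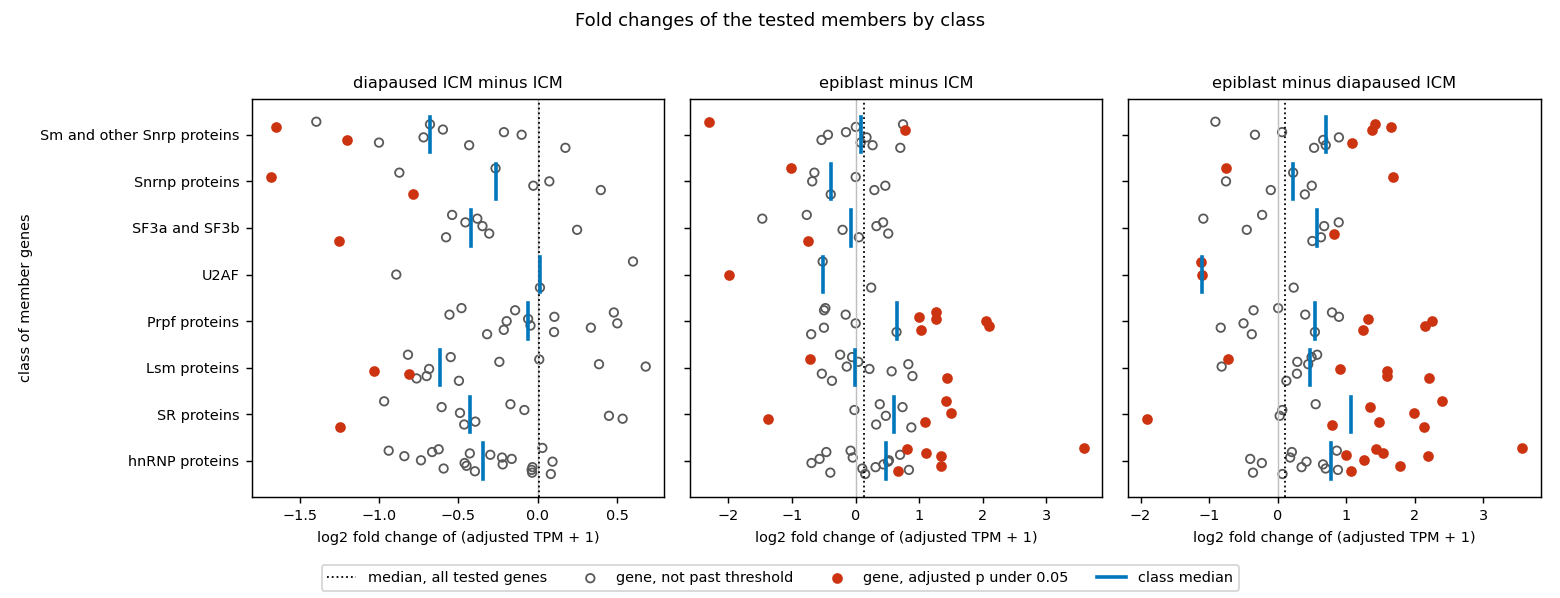
Fitted log2 fold change of each tested splicing gene by class, for the 3 comparisons, with the class median and with genes past the threshold marked. In diapaused ICM against ICM most points lie below 0 and the marked ones are all negative, while in epiblast against diapaused ICM most points of the hnRNP and SR classes lie above 0 and both marked U2AF genes lie below.

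Ordering the 3 group means shows where diapaused ICM stood. It had the lowest mean of the 3 for 54 of 84 splicing genes (64.3%, against 33.2% of all tested genes), and this count was 60, 50 and 53 under the rescaling without abundant genes, median-of-ratios size factors and quantile normalization, against 36.8%, 31.8% and 35.2% of all genes. Epiblast had the highest mean for 48 genes (57.1%, against 44.7%). The order diapaused ICM, ICM, epiblast from low to high held for 39 genes (46.4%, against 24.5%), and 8 genes had the opposite position of epiblast lowest and diapaused ICM highest (9.52%, against 19.9%). Neighbouring means in these orders often differed by less than the spread between libraries.

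In epiblast relative to ICM, 17 of 84 splicing genes rose and 6 fell, where 30.1% of all tested genes were called, 16.7% higher and 13.3% lower. These are 20.2% and 7.14% of the splicing genes. The groups did not overlap for 32 higher and 16 lower genes (38.1% and 19%, against 33.9% and 25% of all genes, together 59%). The median fold change was 0.20, close to the 0.14 of all genes, and after the rescaling without abundant genes it was -0.01 against 0.00, with 13 higher and 8 lower. The number rising was 4 without epiblast replicate 1 and 7 without epiblast replicate 2, and the number falling was 2 and 4. With either left out the group is a single library, which the fit assumes to vary like the others.

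The genes that rose were 6 hnRNP genes, 6 Prpf genes, 3 SR genes, Lsm6 and Snrpb2. Those that fell were Snrpa, U2af1l4, Srsf5, Snrnp200, Sf3b5 and Lsm11 (of the U7 snRNP). The class medians were 0.64 for Prpf, 0.61 for SR and 0.48 for hnRNP genes, positive under all 4 scalings. They were -0.39 for Snrnp and -0.08 for SF3a and SF3b genes, negative under all 4, whereas the 0.08 of the Sm and other Snrp genes became negative under the other 3. The comparison of epiblast with diapaused ICM uses the same epiblast libraries, and its values are given beside those against ICM for the same genes.

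Relative to diapaused ICM, 28 splicing genes rose in epiblast and 5 fell, which are 33.3% and 5.95% of the 84, where 34.5% of all tested genes were called, 18.6% higher and 16% lower. The groups did not overlap for 46 higher genes (54.8%, against 34.1% of all genes) and 10 lower genes (11.9%, against 27.3%), where 61.4% of all genes did not overlap in either direction. The median fold change was 0.55 against 0.11 over all genes. Of the 28, 8 were hnRNP genes, 6 SR, 4 Prpf, 4 Lsm, 4 Sm and other Snrp genes, and the others were Sf3b3 and Snrnp27. Without epiblast replicate 1 or 2, fewer genes rose and fewer fell, among the splicing genes and among all genes. The number falling was 2 without diapaused replicate 2, where 2677 of all 17356 tested genes were lower. It was 3 without ICM replicate 1 (2616 of 17438). Of the 28, 15 stayed past the threshold in all 18 alternatives, among them Hnrnpa0, Hnrnpa1, Hnrnpab, Hnrnpd, Hnrnpl, Hnrnpu, Lsm3, Lsm6, Prpf39, Snrpb2, Snrnp27, Srsf1, Srsf3 and Srsf9.

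Among the hnRNP genes, Hnrnpa0 (ENSMUSG00000007836), a small A/B-type protein, had the highest fold change. It was at 3.02, 2.22 and 6.19 in ICM, 2.71, 3.26 and 5.26 in diapaused ICM, and 111 and 25.6 in epiblast. Both epiblast libraries were far above the rest but differed from each other by more than 4-fold (3.59 ± 0.58 against ICM, adjusted p = 0.00239, limma). Hnrnpd (ENSMUSG00000000568), which also binds AU-rich elements of unstable mRNAs, had ICM values of 327, 280.4 and 566, diapaused ICM values of 200.3, 193 and 232 and epiblast values of 871 and 1043. The epiblast mean of 957 ± 122 (SD, n = 2) was 2.45 times that of ICM (1.35 ± 0.31, adjusted p = 0.0125, limma) and 4.59 times that of diapaused ICM (2.19 ± 0.31, adjusted p = 0.00112). Its call against ICM was lost without epiblast replicate 1 (adjusted p = 0.0603) or epiblast replicate 2 (0.0858).

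Hnrnpl (ENSMUSG00000015165), a protein that binds CA repeats, stood at 74.1, 55.5 and 77.8 in ICM, 47.6, 45.9 and 56.6 in diapaused ICM and 228 and 134 in epiblast. It rose against ICM (1.34 ± 0.29, adjusted p = 0.00976, limma; 0.106 without epiblast replicate 1) and against diapaused ICM (1.79 ± 0.29, adjusted p = 0.00220). The epiblast libraries of Hnrnpa1, 795 and 762, were close together and above all others. Hnrnpa1 rose by 1.44 ± 0.21 against diapaused ICM (adjusted p = 0.00121, limma) and by 0.82 ± 0.21 against ICM (adjusted p = 0.0190, and 0.117 or 0.0846 without epiblast replicate 1 or 2).

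Of the Prpf genes, Prpf39 (ENSMUSG00000035597), a factor associated with the U1 snRNP, was at 6.70, 6.70 and 9.96 in ICM, 5.83, 5.93 and 8.13 in diapaused ICM and 45.7 and 26.8 in epiblast (2.06 ± 0.30 against ICM, adjusted p = 0.00152, and 2.25 ± 0.30 against diapaused ICM, adjusted p = 0.000813, limma). The neighbouring gene Fkbp3, named after its values were seen, lies on the opposite strand and overlaps Prpf39 exons by 599 bases. Fkbp3 also rose in epiblast, from 107 ± 71.8 in ICM to 345 ± 7.48 (1.97 ± 0.57, adjusted p = 0.0308, limma, and 0.130 without epiblast replicate 1, 0.124 without replicate 2 and 0.0503 without ICM replicate 1), and without known use of strand the reads of the overlap cannot be assigned. Prpf38b, the Prpf gene of highest level, went from 420.3, 196 and 416 in ICM to 803 and 755 in epiblast (1.26 ± 0.37, adjusted p = 0.0314, limma). That call was lost without epiblast replicate 1 or 2. In diapaused ICM Prpf38b read 352, 235 and 364, within the spread of ICM.

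Lsm6 (ENSMUSG00000031683), of the U6 ring, had a wide range over the groups. Its values were 55.5, 47.2 and 75.9 in ICM, 37.95, 30.5 and 33.8 in diapaused ICM and 145 and 177 in epiblast, with no overlap between any pair of groups. It rose in epiblast against ICM (1.44 ± 0.27, adjusted p = 0.00476) and against diapaused ICM (2.20 ± 0.27, adjusted p = 0.000492, limma), while diapaused ICM against ICM missed the threshold (-0.76 ± 0.24, adjusted p = 0.0683).

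**Figure D4:**
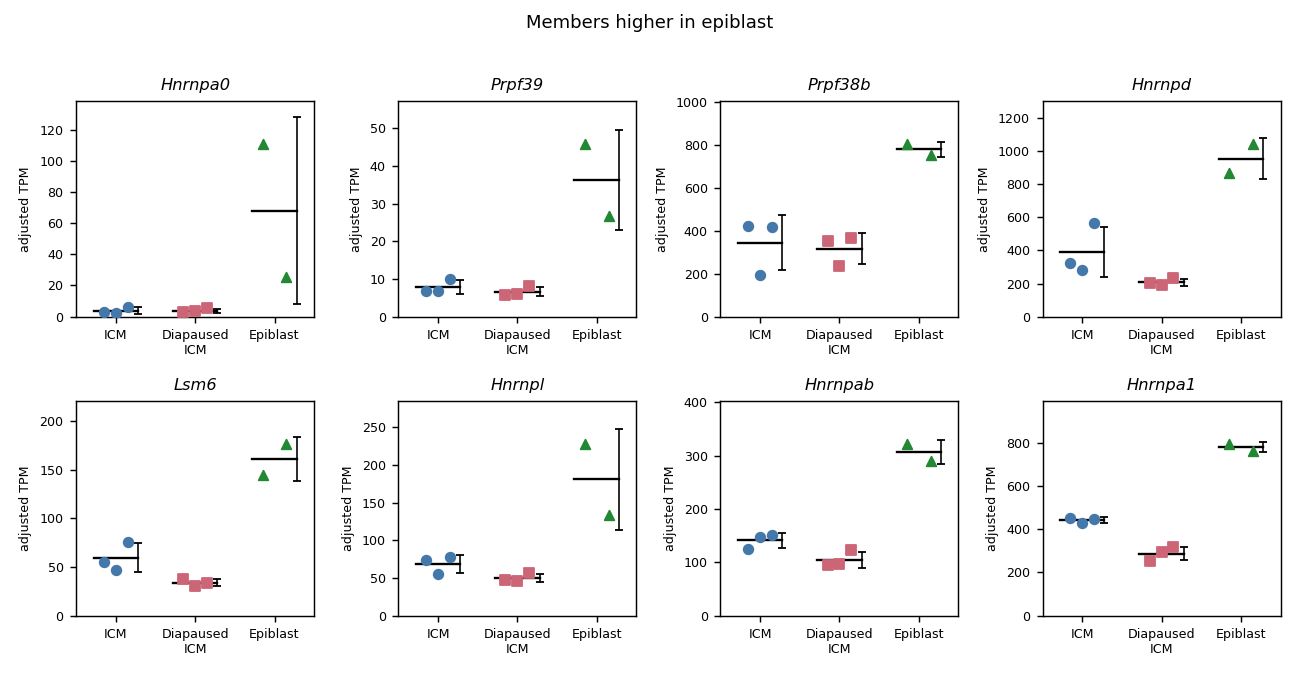
Adjusted TPM in each library (points), with group mean (bar) and SD (whisker), of 8 splicing genes that rose in epiblast against both ICM and diapaused ICM. Both epiblast points lie above all blastocyst points in every panel, and they lie far apart for Hnrnpa0 (25.6 and 111).

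Of the snRNP-specific genes, Snrpa and Snrnp200 fell in epiblast. Snrpa, the U1 A protein, was at 65.9, 72.4 and 36.2 in ICM, 8.59, 20.98 and 46.6 in diapaused ICM and 10.4 and 10.5 in epiblast. The diapaused libraries spread over 5-fold, and only epiblast against ICM passed (-2.30 ± 0.58, adjusted p = 0.0184, limma). That call was lost without ICM replicate 1 (0.0515), epiblast replicate 1 (0.0986) or epiblast replicate 2 (0.0840). Snrnp200, the helicase that unwinds U4 from U6, went from 34.7, 44.1 and 33.4 in ICM to 27.8, 31.05 and 33.5 in diapaused ICM and 16.2 and 19.6 in epiblast (-1.02 ± 0.24 against ICM, adjusted p = 0.0125, limma, and 0.113 without epiblast replicate 1). The fall of Sf3b5 against ICM, to 31.5 and 34.1 (-0.74 ± 0.22, adjusted p = 0.0349, limma), was lost in 5 of the 8 leave-outs, with adjusted p up to 0.186 without epiblast replicate 1.

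Within the SR family, Srsf5 ran opposite to Srsf1 and Srsf3. Srsf1 (ENSMUSG00000018379), a founding member of the family, was at 271, 141 and 249 in ICM, 116, 79.3 and 136 in diapaused ICM and 574 and 567 in epiblast. The 2 epiblast libraries were nearly equal, and the diapaused ones were the lowest 3 of the 8. Srsf1 rose by 2.39 ± 0.34 against diapaused ICM (adjusted p = 0.00114, limma) and 1.43 ± 0.34 against ICM (adjusted p = 0.0146, but 0.0899 and 0.0742 without epiblast replicate 1 and 2). Srsf3 (ENSMUSG00000071172), the smallest SR protein, had ICM values of 167, 203 and 207, diapaused ICM values of 129, 133 and 147 and epiblast values of 673 and 441 (1.504 ± 0.25 against ICM, adjusted p = 0.00304, and 1.99 ± 0.25 against diapaused ICM, adjusted p = 0.000626, limma).

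Srsf5 (ENSMUSG00000021134), whose promoter is printed above, was at 749.6, 715 and 759 in ICM, 848, 1141 and 1279 in diapaused ICM and 279 and 292 in epiblast. The groups were fully separated in the order opposite to that of Srsf1. Srsf5 fell in epiblast 2.59-fold against ICM (-1.37 ± 0.23, adjusted p = 0.00321, limma) and 3.81-fold against diapaused ICM (-1.91 ± 0.23, adjusted p = 0.000532), and both calls held in all 18 alternatives. The higher level in diapaused ICM than in ICM did not pass (0.53 ± 0.21, adjusted p = 0.136). Srsf2, the most abundant SR gene by mean level, had near-equal means of 1047 ± 336, 954 ± 50.2 and 999 ± 70.8 in ICM, diapaused ICM and epiblast, with fold changes from -0.08 to 0.07.

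The U2AF genes shared the low epiblast level of Srsf5 in part. U2af1 (ENSMUSG00000061613), the small subunit that reads the AG at the intron end, was at 252, 356 and 247 in ICM, 492, 398 and 395 in diapaused ICM and 166 and 231 in epiblast. It was one of the 3 genes whose diapaused libraries all lay above ICM, without passing the test (0.60 ± 0.24, adjusted p = 0.142, limma), and fell in epiblast against diapaused ICM (-1.12 ± 0.27, adjusted p = 0.0127, but 0.113 without epiblast replicate 1). Its paralog U2af1l4 (ENSMUSG00000078765) had its values in the order ICM, diapaused ICM, epiblast from high to low, from 12.98, 21.1 and 13.9 in ICM to 9.05, 10.03 and 5.53 in diapaused ICM and 2.85 and 3.53 in epiblast (-1.99 ± 0.31 for epiblast against ICM, adjusted p = 0.00195, limma). U2af2, the large subunit, which reads the polypyrimidine tract, stayed within 17.2 to 20.7 in its group means, and none of its fold changes passed.

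**Figure D5:**
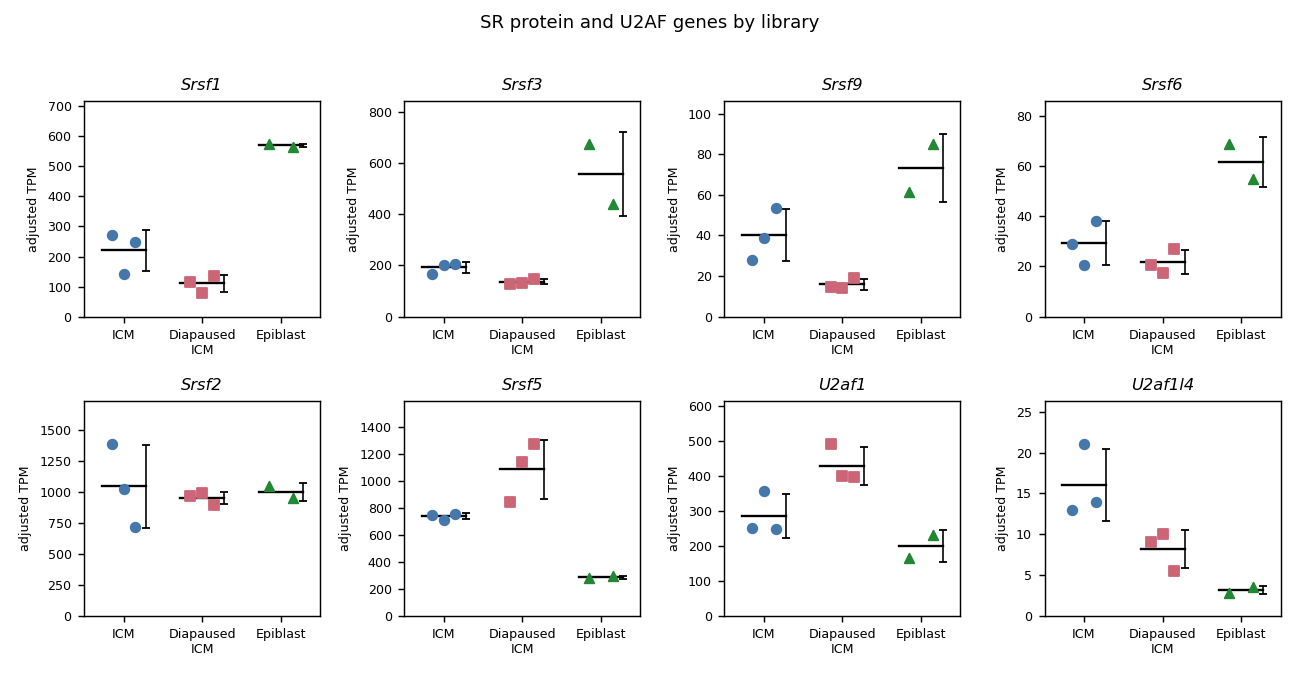
Adjusted TPM in each library (points), with group mean (bar) and SD (whisker), of 6 SR genes and 2 U2AF genes. Srsf1, Srsf3, Srsf9 and Srsf6 have their highest points in epiblast, Srsf5 and U2af1 have theirs in diapaused ICM, and Srsf2 shows no separation.

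Other genes of the splicing pathway, in 6 lists by role, are given beside them. Of 109 tested genes, 5 rose (4.59%, against 7.52% of all genes) and 8 fell (7.34%, against 5.81%) in diapaused ICM against ICM, shares near those of all genes, with a median of -0.23. In epiblast against ICM 12 rose and 11 fell (11% and 10.1%, against 16.7% and 13.3% of all genes), with a median of 0.07. Against diapaused ICM 31 rose and 11 fell (28.4% and 10.1%, against 18.6% and 16%), with a median of 0.15. The 37 further spliceosome components had a median of -0.29 in diapaused ICM, the 32 other splicing regulators -0.22, the 14 genes of snRNP assembly and import -0.44, and the 6 exon junction complex genes -0.64 with none past the threshold. The 6 minor spliceosome genes had a median of 0.14 and the 14 SR kinases and SR-related genes 0.10.

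The kinases that phosphorylate SR proteins included 2 genes that rose in diapaused ICM. Clk4 was at 29.96, 51.2 and 30.1 in ICM, 111, 99.7 and 103 in diapaused ICM and 33.2 and 36.4 in epiblast. The diapaused libraries alone stood high (1.51 ± 0.25 against ICM, adjusted p = 0.00510, limma). Srpk2 showed the same, with ICM values of 9.09, 5.28 and 5.33, diapaused ICM values of 13.5, 13.9 and 13.8 and epiblast values of 3.80 and 3.36 (1.001 ± 0.23, adjusted p = 0.0226, limma). The call for Clk4 held with each library left out, while that for Srpk2 was lost in 5 of 8 leave-outs, with adjusted p up to 0.0731 without ICM replicate 3.

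In snRNP assembly, Phax, the adaptor for nuclear export of snRNA precursors, rose in diapaused ICM, from 38.4 ± 6.42 to 84.5 ± 19.4 (1.11 ± 0.26, adjusted p = 0.0239, limma). Gemin6, a subunit of the SMN complex that loads Sm rings, fell from 17.5 ± 4.30 to 5.63 ± 4.18 (-1.64 ± 0.42, adjusted p = 0.0327) and reached 38.3 ± 9.74 in epiblast. The call for Phax was lost in 4 of 8 leave-outs and that for Gemin6 in 5, with adjusted p up to 0.0792 and 0.0955 without ICM replicate 3. Smn1, the central protein of that complex, fell in epiblast against ICM, from 603, 628 and 374 to 162 and 157 (-1.70 ± 0.33, adjusted p = 0.00562, limma). Clns1a, which chaperones Sm proteins before loading, rose there, from 64.4 ± 13.5 to 141 ± 3.54 (1.14 ± 0.26, adjusted p = 0.0122, limma), a call lost without epiblast replicate 1 (0.0882) or 2 (0.0662).

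Of the polypyrimidine tract binding paralogs, which repress exons, Ptbp2 rose in epiblast while Ptbp1 and Ptbp3 fell. Ptbp2 was at 0.281, 0.545 and 0.594 in ICM, 0.250, 0.798 and 0.384 in diapaused ICM and 22.02 and 10.5 in epiblast (3.47 ± 0.33 against ICM). It met the filter on low values through its epiblast libraries alone, and did not meet it with either left out. For that reason the p-value of Ptbp2 is not given as support. Ptbp1, the most abundant of the 3 and chosen after its values were seen, went from 192 ± 2.77 in ICM and 225 ± 15.7 in diapaused ICM to 84.2 ± 19.8 in epiblast (-1.20 ± 0.23 against ICM, adjusted p = 0.00554, limma, and 0.0708 without epiblast replicate 1). Ptbp3 fell in both other groups relative to ICM, from 46.1, 48.4 and 60.9 to 26.4, 18.8 and 22.2 in diapaused ICM (-1.17 ± 0.22, adjusted p = 0.00874) and 11.5 and 10.7 in epiblast (-2.11 ± 0.24, adjusted p = 0.000435, limma). Rbmx, an RNA-binding protein of the hnRNP G type, fell in diapaused ICM (-0.73 ± 0.21, adjusted p = 0.0477, lost in 7 of 8 leave-outs, up to 0.140 without ICM replicate 1) and rose in epiblast against ICM (1.36 ± 0.23, adjusted p = 0.00313, limma). Zmat5, a protein of the minor spliceosome, went from 3.37, 7.35 and 8.66 in ICM to 0.495, 0.543 and 0.500 in diapaused ICM and 0.137 and 0.163 in epiblast (-2.22 ± 0.30 for diapaused ICM against ICM). Only its ICM libraries reached 1, so Zmat5 entered the test through the group where it was high. Its p-value is therefore not given as support.

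Several splicing genes share sequence with copies elsewhere or with genes that overlap them, which limits their values. The 35-base words of each gene were searched on both strands in the GENCODE transcripts of build GRCm38. Of the 85 genes, 26 shared more than 10% of their words with another gene, 23 shared under 1%, and the median was 4.32%. These shares count overlapping genes as well as copies. Snrpf shared 91.5%, Hnrnpf 65.4%, Sf3b4 49.7%, U2af1l4 47.9% and Srsf4 40.6%. Hnrnpa1 shared 29.3%, Hnrnpa3 27.9%, Hnrnpab 27.3%, Snrpa 27.3% and U2af1 24.4%. The levels of all these genes are uncertain, also where their calls held in every alternative. Exons of U2af1l4 overlap those of Gm49396 on the same strand by 1086 bases. Srsf4 shared words with Gm12992 only, whose exons overlap its own by 1532 bases on the opposite strand. Exons of Hnrnpab overlap those of Phykpl by 809 bases, also on the opposite strand. Snrpg shared 13.6%, and its pseudogene-type copy Gm8186 was itself listed at 5455 ± 2211, 5649 ± 1228 and 5986 ± 1299.6 in ICM, diapaused ICM and epiblast. Gm14284, a copy of Snrpe, was at 136, 167 and 236 in ICM, 24.01, 21.9 and 19.4 in diapaused ICM and 227 and 293 in epiblast (-2.96 ± 0.25 for diapaused ICM against ICM, adjusted p = 0.000198, limma), beside the 1.97-fold lower mean of Snrpe. The copies were named after their values were seen. Of the 8 genes that fell in diapaused ICM, Srsf9 and Lsm4 shared 0%, Sf3b5 0.505%, Snrnp27 1.85%, Snrnp70 2.07%, Snrpb 2.12%, Lsm3 5.79% and Snrpd3 6.05%. Exons of 23 splicing genes overlapped those of another gene by at least 100 bases, in 19 cases on the opposite strand.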

How the data were processed

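RNA sequencing had been done on 8 libraries (3 ICM, 3 diapaused ICM, 2 epiblast), called biological triplicates and duplicates in the labels. The values the authors deposited are a signal per gene with column names that call it adjusted TPM. Their sums per library ranged from 720674 to 1179026, so they are not TPM proper as had been assumed when the test was planned, and the planned test on log2(value + 1) was kept. The submitters' processing notes name Bowtie 0.12.5, DESeq and mm9 without roles, and of the quantifier, the annotation, the adjustment and any use of strand nothing is said in those notes or in the labels. Depth is unknown, which precludes counting intervals, and each library held between 14634 and 15130 genes at a level of 1 or higher.

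Genes were tested if 2 or more libraries had them at 1 or higher. limma 3.58.1 in R 4.3.3 fitted a mean per group over all 8 libraries, with a trended prior variance (5 residual and 3.97 prior degrees of freedom). Tests were two-sided with a threshold of 0.05 on the adjusted p. p-values measure the spread between these pools. The script was tested on simulated data. The splicing genes, the other lists and the markers were chosen with earlier results of these data known, and no list was tested as a set.

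In each comparison the genes named were up to 8 with the highest and 8 with the lowest fold change among splicing genes past the threshold, without overlap and with a mean of at least 10 in the higher group. To these were added the gene of highest level and of smallest p in diapaused ICM against ICM per class, the 7 Sm ring genes, and up to 2 genes per further list and comparison. Genes beyond the rule (Snrpb2, Lsm11, U2af2, Snrnp48, Ptbp1, Fkbp3, the copies and those in lists of calls) were chosen after their values were seen, and 1 gene that the rule names is not reported here. Promoters, motif matches and shared 35-base words were read from RefSeq and GENCODE tables of GRCm38. The alternatives tried were other pseudocounts, filters and scalings, a fit of only the groups compared, a replicate block, summed repeated symbols and leaving out each library.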

Additional observations from a re-analysis of the deposited data

How the results depend on the processing

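The median fold change of the splicing genes kept its sign under all 18 alternatives in diapaused ICM against ICM and in epiblast against diapaused ICM, and in epiblast against ICM in all but the rescaling without abundant genes. That rescaling gave medians of -0.523 for diapaused ICM against ICM and -0.008321 for epiblast against ICM, with 14 genes lower in the first and 3 lower in epiblast against diapaused ICM. Median-of-ratios size factors gave medians of 0.0321 for epiblast against ICM and 0.3998 for epiblast against diapaused ICM, and a pseudocount of 4 gave 0.457 for the latter. With no filter on low values, where 38924 genes shared the adjustment, 4 genes were lower in diapaused ICM, 10 higher in epiblast against ICM and 3 lower in epiblast against diapaused ICM. Over all genes, the rescaling turned the 2963 higher and 2361 lower calls of epiblast against ICM into 1970 and 2725, and median-of-ratios size factors into 2177 and 2698. For epiblast against diapaused ICM the 3283 and 2830 became 2679 and 2844 with the rescaling, and 2479 and 3154 with median-of-ratios size factors.

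The labels do not say that a replicate number is shared between groups. Deviations from the group mean of same-numbered ICM and diapaused ICM libraries correlated at 0.0175, 0.103 and 0.131. Libraries of different number were not compared, so these values cannot tell whether the samples were paired. With the number as a replicate block, 7 genes were lower in diapaused ICM, 3 lower in epiblast against ICM (median 0.281) and 3 lower in epiblast against diapaused ICM. Leaving out each library gave 3 to 10 lower and 0 to 1 higher genes in diapaused ICM against ICM (median -0.4302 to -0.2955), 4 to 16 higher and 2 to 6 lower in epiblast against ICM (median 0.1485 to 0.293), and 16 to 33 higher and 1 to 5 lower in epiblast against diapaused ICM (median 0.548 to 0.599). Snrpg in diapaused ICM against ICM turned from 0.17 to -0.779 under quantile normalization, with an adjusted p of 0.0224 there by limma, and the cause was not tested. Its copy Gm8186 turned likewise, from 0.11 to -0.739 (adjusted p = 0.0123 by limma). Among the genes named or past the threshold in a comparison, which are those for which alternatives were run, 23 changed sign in a comparison where they had not passed, both of these and U2af2 included. Other genes were not examined for this. The unknown depth, 2 epiblast libraries and amplified RNA limit what can be told apart.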
